A study of Mus musculus with 6 samples.

Results

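The genes described here encode the nuclear subunits and several assembly factors of the mitochondrial respiratory chain and ATP synthase. They were chosen by symbol from the array's annotation, as probe sets (groups of short probes against one transcript) that name exactly 1 gene whose symbol starts with Ndufa, Ndufb, Ndufc, Ndufs, Ndufv, Sdha, Sdhb, Sdhc, Sdhd, Uqcr, Cox4, Cox5, Cox6, Cox7, Cox8 or Atp5. No measured value entered this choice. It took 185 of 45101 probe sets, for 94 of the 18193 genes that such probe sets name: 42 of complex I, 8 of complex II, 8 of complex III, 19 of complex IV and 17 of ATP synthase. The subunits that mitochondrial DNA encodes carry other symbols and were not looked at.

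The RNA came from cortex of mice with a bacterial artificial chromosome (BAC) that puts a tagged ribosomal protein into cells using a driver gene, so that messenger RNA on these cells' ribosomes can be pulled down (TRAP). One group of 3 samples carried the S100a10 driver (line ES691) and the other group of 3 the Glt25d2 driver (line DU9, gene now named Colgalt2). Both lines had been backcrossed for 3 to 5 generations from FVB to C57BL/6, and neither was treated; the ages are not given in the sources used here. Each sample was amplified in 2 cycles from 15 ng of RNA and read on 1 Affymetrix array. The study set the lines against each other as cortical pyramidal cells. Each group is 1 transgenic line, and the series text states that the S100a10 BAC also labels some cells that are not neurons.

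As background, electrons from NADH enter the chain at complex I and those from succinate at complex II. Ubiquinone carries them to complex III and cytochrome c from there to complex IV, which reduces oxygen. Complexes I, III and IV pump protons across the inner mitochondrial membrane, and ATP synthase (complex V) makes ATP as the protons flow back through its ring of c subunits. Neurons draw most of their ATP from this pathway. Several complex IV subunits exist as isoforms of one another, made in heart and skeletal muscle, in testis or in most tissues.

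Values are GCRMA intensities on a linear scale, and every difference is a log2 value, S100a10 minus Glt25d2, from limma with Benjamini-Hochberg adjustment over all probe sets tested. A gene was read from its brightest kept probe set, where kept means that the mean of either group reached 50, and called at an adjusted p below 0.05. By this reading 87 of the 94 genes were measured and 7 lay under the filter. The deposited arrays do not share one scale. The median intensity over all probe sets was 35.5, 35.6 and 35.8 in the S100a10 arrays and 21.3, 21.1 and 20.4 in the Glt25d2 arrays, and the median difference of all 11821 genes tested was 0.56. It was -0.04 after quantile normalization of the 6 arrays and -0.14 after centring each array on its median. Directions are therefore given for the deposited scaling and for these rescaled values. S100a10 itself had 15496, 17898 and 13064 in S100a10 arrays and 3126, 3141 and 3444 in Glt25d2 arrays, and Colgalt2 had 11.4, 11.7 and 11.7 in S100a10 arrays and 1053, 827 and 1352 in Glt25d2 arrays, so each driver was high in its own line.

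Pyramidal cell markers were present in both lines. The summed intensity of 9 markers was 19375 to 19708 in S100a10 arrays and 18299 to 21984 in Glt25d2 arrays. Of these 4 were higher and 2 lower (3 and 3 after quantile normalization). Several markers of other cells differed between the lines. Sums are over the markers on the array and calls over those measured. Both are of the deposited values, whose array medians differ between the lines, unless stated. Over all genes tested 44.4% were higher and 4.5% lower as deposited, and 16.8% and 18.4% after quantile normalization. The sum over 11 mural cell and fibroblast markers was 9981 to 12852 in S100a10 arrays and 860 to 1079 in Glt25d2 arrays. Of the 10 measured, 8 were higher and 1 lower in S100a10 (8 and 2 after quantile normalization). Pdgfrb, Myl9, Tagln, Col1a1, Col1a2 and Lum lay under 50 in every Glt25d2 array. Astrocyte markers summed to 16957 to 22534 in S100a10 arrays and 9350 to 16424 in Glt25d2 arrays. Of 7, 2 were higher and 2 lower, as after quantile normalization, and Gfap lay under 50 in every S100a10 array. Interneuron markers summed to 18051 to 23038 in S100a10 arrays and 12773 to 18866 in Glt25d2 arrays, which overlap. Of 9, 4 were higher and 1 lower, as after quantile normalization. Gad1, the brightest of them, did not pass, at 0.14 (limma adjusted p = 0.596). The 8 endothelial markers summed to 425 to 480 in S100a10 arrays and 837 to 1748 in Glt25d2 arrays. Of the 4 measured 1 was higher and 2 lower (0 and 3 after quantile normalization), with Pecam1, Cdh5 and Flt1 under 50 everywhere. Oligodendrocyte markers summed to 3624 to 5515 in S100a10 arrays and 7321 to 11130 in Glt25d2 arrays. Of 6, 1 was higher and 2 lower (0 and 4 after quantile normalization). Ependymal and choroid plexus markers summed to 1633 to 1865 in S100a10 arrays and 119 to 126 in Glt25d2 arrays (4 of 4 measured higher, 2 of them after quantile normalization, with Foxj1 and Folr1 under 50 everywhere). The 6 microglial markers summed to 536 to 844 in S100a10 arrays and 311 to 520 in Glt25d2 arrays. Of 4 measured, 1 was higher and 0 lower, as after quantile normalization. The part of these cells in the differences below was not tested, and fewer cells of a type cannot be told apart from less RNA per cell.

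Promoters of 5 genes that the results turn on are shown first: the 2 higher and 2 of the 4 lower genes whose call held under every scaling, and the complex I gene with the largest difference. They are the 250 bases before the RefSeq start (GRCm38.p6, 5′ to 3′ on the gene's strand). Cox6b2 lies at chr7:4753095-4753344 (minus strand), Cox7a1 at chr7:30183921-30184170 (plus), Ndufaf8 at chr11:120098684-120098933 (plus), Ndufaf1 at chr2:119662835-119663084 (minus) and Sdha at chr13:74350241-74350490 (minus). Capitals mark letters of motifs named for factors known from respiratory chain promoters, NRF1 (GCGCANGCG), ETS factors such as GABP (CCGGAAG) and YY1 (AAGATGGCG), searched on both strands.
Cox6b2: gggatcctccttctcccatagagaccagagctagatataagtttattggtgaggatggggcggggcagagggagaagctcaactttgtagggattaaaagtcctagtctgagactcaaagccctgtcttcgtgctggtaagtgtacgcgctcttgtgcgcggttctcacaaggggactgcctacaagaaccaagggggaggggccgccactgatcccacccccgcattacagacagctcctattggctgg
Cox7a1: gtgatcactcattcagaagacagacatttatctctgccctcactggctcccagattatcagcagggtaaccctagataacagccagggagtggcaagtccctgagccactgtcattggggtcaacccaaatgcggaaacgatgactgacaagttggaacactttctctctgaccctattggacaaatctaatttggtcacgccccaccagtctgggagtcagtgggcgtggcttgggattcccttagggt
Ndufaf8: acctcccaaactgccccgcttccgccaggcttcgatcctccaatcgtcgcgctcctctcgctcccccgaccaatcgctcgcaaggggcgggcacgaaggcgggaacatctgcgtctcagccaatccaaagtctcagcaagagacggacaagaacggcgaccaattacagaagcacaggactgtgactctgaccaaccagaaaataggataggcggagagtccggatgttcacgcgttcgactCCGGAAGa
Ndufaf1: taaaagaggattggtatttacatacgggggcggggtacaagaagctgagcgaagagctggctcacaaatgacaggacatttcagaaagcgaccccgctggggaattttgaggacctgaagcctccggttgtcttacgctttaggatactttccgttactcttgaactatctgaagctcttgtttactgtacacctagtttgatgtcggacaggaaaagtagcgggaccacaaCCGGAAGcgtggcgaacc
Sdha: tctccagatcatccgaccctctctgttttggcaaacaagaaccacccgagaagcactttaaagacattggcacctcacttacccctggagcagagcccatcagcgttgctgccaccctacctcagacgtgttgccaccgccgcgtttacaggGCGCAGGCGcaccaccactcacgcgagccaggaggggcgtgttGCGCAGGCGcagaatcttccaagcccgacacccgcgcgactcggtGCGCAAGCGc
The Sdha stretch held the NRF1 letters 3 times, Ndufaf8 and Ndufaf1 the ETS letters once each, and Cox6b2 and Cox7a1 held none of the 3 motifs. The YY1 letters of Ndufaf8 lie after its start and are not printed.

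Over 300 bases (250 before and 50 after the start), a promoter was found in the RefSeq table for 78 of the 94 genes. The NRF1 letters were present in 22 of them (28.2%), against 7.03% of 27025 genes. The ETS letters were likewise present in 22 (28.2%, against 9.93%) and the YY1 letters in 7 (8.97%, against 1.64%), so 42 genes held at least 1 of the motifs and 7 held both NRF1 and ETS letters. In 0 of the 78 did letters of 2 motifs overlap. By call, the NRF1 letters stood in 6 of 23 genes higher in S100a10, in 1 of 3 lower and in 14 of 48 not past the threshold, and the ETS letters in 6 of 23, 1 of 3 and 15 of 48. The YY1 letters stood in 3 of 23, 0 of 3 and 4 of 48. A match of letters is a description and not a binding site.

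How many of these genes differed between the lines depended on the scaling. In the deposited scaling 27 of the 87 measured genes were higher in S100a10 (31.0%, against 44.4% of all genes tested), 4 were lower (4.6%, against 4.5%) and 56 did not pass. The median difference was 0.20, or 0.36 below the median of all genes (relative difference -0.36). The arrays of the groups did not overlap for 44 genes higher in S100a10 (50.6%, against 55.9% of all genes tested) and for 14 lower (16.1%, against 7.9%), and overlapped for 29. After quantile normalization 6 genes were higher (6.9%, against 16.8% of all genes) and 12 lower (13.8%, against 18.4%), with a median of -0.04, the same to 2 decimals as all genes. After median centring 3 were higher (3.45%, against 16.9% of all genes) and 51 lower (58.6%, against 25.1%), with a median of -0.51. Of the 27 genes higher as deposited, 2 (Atp5g3 and Ndufb5) passed in the opposite direction after centring. On the probe set read, the calls that held in all 3 scalings were Cox6b2 and Cox7a1, higher, and Ndufs1, Ndufv1, Sdha and Ndufaf1, lower in S100a10.

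**Figure D1:**
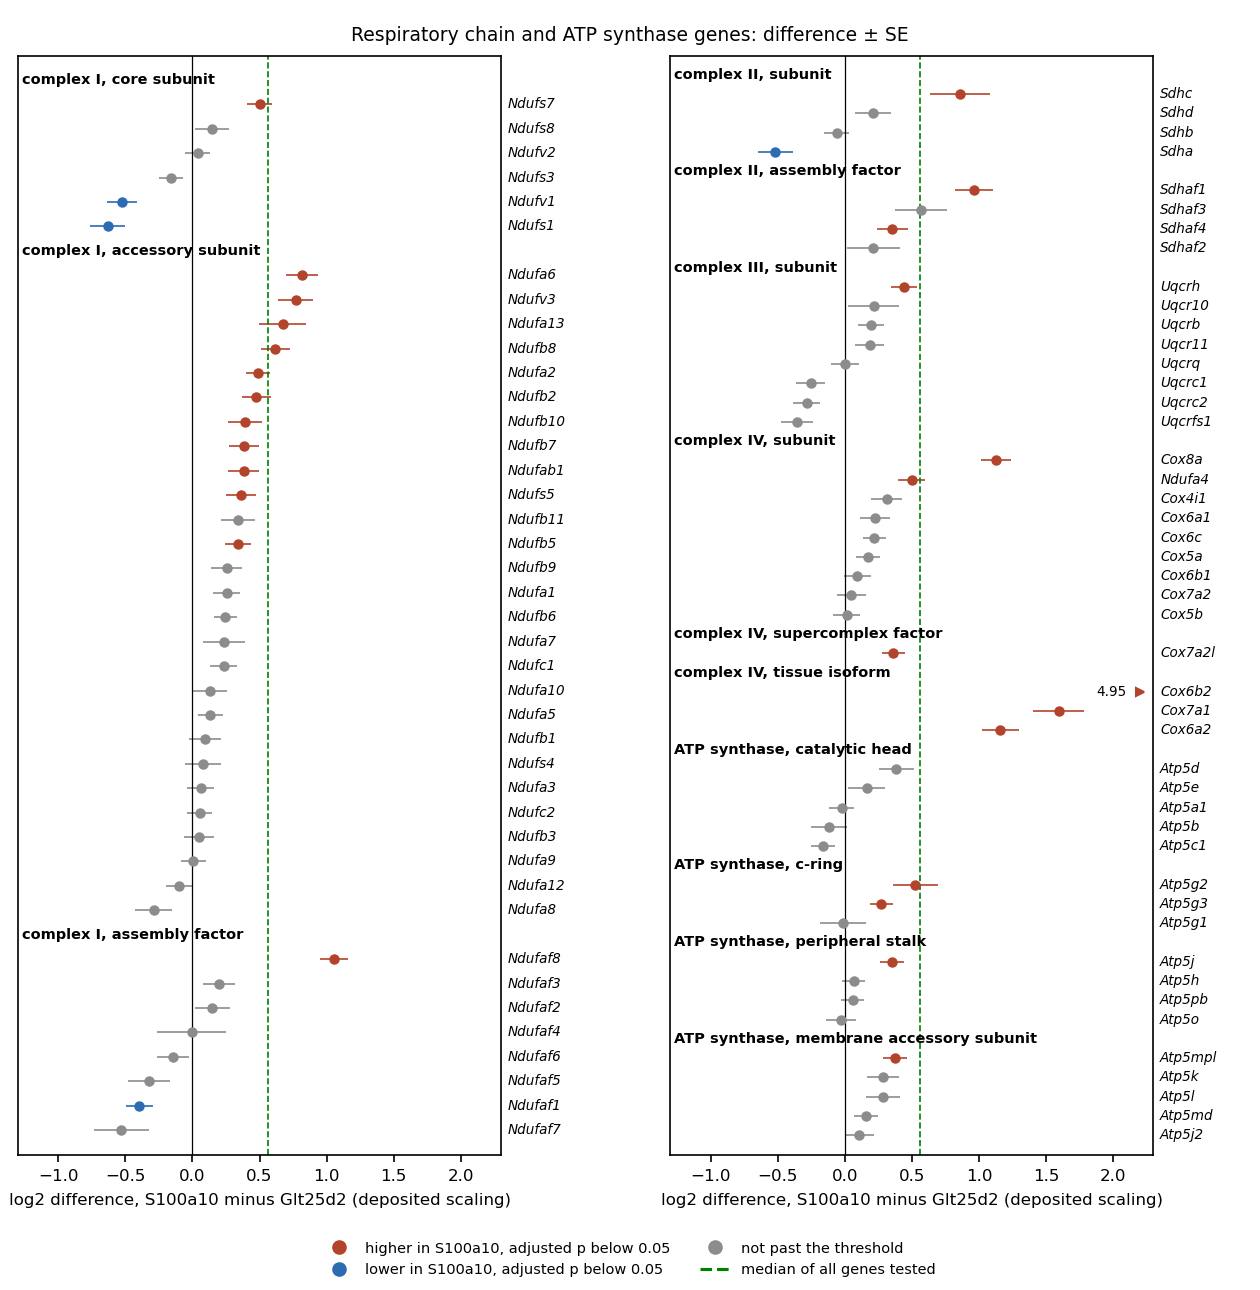
Log2 difference ± SE (S100a10 minus Glt25d2, deposited scaling, 3 arrays each) of the 87 measured genes by complex and role, red for higher, blue for lower and grey for not past the threshold. Most points lie left of the dashed line, the median of all genes at 0.56; Cox6b2, at 4.95, lies past the axis and is drawn as an arrowhead. After quantile normalization 6 genes are higher and 12 lower, and after median centring 3 and 51.

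Most of these genes are bright, with 61 of 87 at a mean log2 intensity of 12 to 16. Among genes with a mean log2 intensity of 12 to 16, 26.2% of 61 members were higher and 4.92% lower in S100a10, with a median of 0.16, and 24.9% of 1240 other genes were higher and 6.21% lower, with a median of 0.17. Below a mean log2 of 10 the medians were 1.13 over 7 members and 0.74 over 7888 other genes. Between 10 and 12 they were 0.22 over 19 members and 0.36 over 2606 others. Between 12 and 13 they were 0.27 over 12 members and 0.20 over 684 others. From 13 to 14 they were 0.05 over 22 members and 0.15 over 388 others, and from 14 to 16 0.16 over 27 members and 0.14 over 168 others. Relative to all genes, the members' median was -0.36 as deposited and -0.0053 after quantile normalization.

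**Figure D2:**
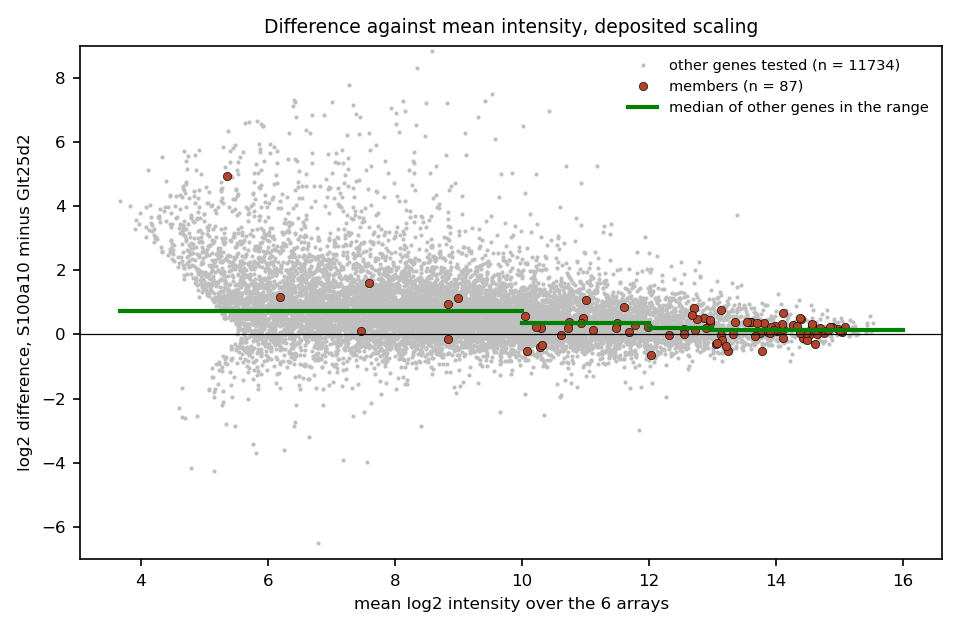
Log2 difference in the deposited scaling (S100a10 minus Glt25d2) against mean log2 intensity over the 6 arrays, with members as red points and other genes in grey. Green bars give the median of the other genes in each intensity range; at a mean log2 of 12 to 16 the medians are 0.16 for members and 0.17 for other genes.

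In complex I, of the 6 measured core subunits that carry out the chemistry, 1 was higher (16.7%, against 44.4% of all genes) and 2 were lower in S100a10 (33.3%, against 4.5%), with a median of -0.06. Ndufv1, which binds NADH and the flavin that takes its electrons, had 11374, 13053 and 11099 in S100a10 arrays against 18225, 16833 and 15990 in Glt25d2 arrays. Ndufs1, the neighbouring subunit that holds iron-sulphur clusters, had 3315, 3290 and 3491 in S100a10 arrays against 4731, 4877 and 6136 in Glt25d2 arrays. For both, every S100a10 array was below every Glt25d2 array. The difference was -0.52 for Ndufv1 (SE 0.11, limma adjusted p = 0.012), -0.69 after quantile normalization and -1.23 after centring. For Ndufs1 it was -0.63 (SE 0.13, limma adjusted p = 0.0105), -0.92 and -1.34, and -0.51 without the high Glt25d2 replicate 3. Both calls held when any 1 array was left out. The opposite was seen for Ndufs7, which holds the last iron-sulphur cluster before ubiquinone and was not taken by the naming rule but chosen after its values were seen. It had 25788, 25962 and 24264 in S100a10 arrays against 18792, 17555 and 17350 in Glt25d2 arrays, a difference of 0.50 (SE 0.09, limma adjusted p = 0.00672), which was 0.31 and not past the threshold after quantile normalization and -0.20 after centring. Ndufs3, Ndufs8 and Ndufv2 did not pass in the deposited scaling, with differences of -0.16, 0.14 and 0.04.

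Of the 27 measured accessory subunits, which surround the core and are needed for its stability, 11 were higher (40.7%, against 44.4% of all genes) and 0 lower in S100a10 in the deposited scaling (median 0.25). The difference between core and accessory subunits was not tested. After quantile normalization 2 were higher and 2 lower (Ndufa8 and Ndufb1), against 16.8% and 18.4% of all genes. After centring 0 were higher and 15 lower, against 16.9% and 25.1% of all genes. Ndufa6, a small protein that docks the acyl carrier protein Ndufab1 on the complex, had 9904, 7840 and 9117 in S100a10 arrays against 5116, 5053 and 5000 in Glt25d2 arrays. Its difference was 0.82 (SE 0.12, limma adjusted p = 0.0026), 0.59 after quantile normalization (limma adjusted p = 0.0196) and 0.11, not past the threshold, after centring. Ndufv3, a subunit next to Ndufv1, had 11230, 12392 and 11621 in S100a10 arrays against 8016, 6207 and 6559 in Glt25d2 arrays, a difference of 0.77 (SE 0.13, limma adjusted p = 0.00479), 0.57 after quantile normalization (limma adjusted p = 0.0323) and 0.07 after centring. In both genes the 3 S100a10 arrays stood above the 3 Glt25d2 arrays. Ndufv3 and its neighbour Ndufv1 thus had opposite signs in all 3 scalings, with both calls past the threshold in the deposited and the quantile normalized values.

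Ndufa13, also known as the cell death regulator Grim19, had 21893, 23104 and 22110 in S100a10 arrays against 16603, 15133 and 10990 in Glt25d2 arrays. The groups did not overlap, and Glt25d2 replicate 3 was the lowest array. The difference of 0.67 (SE 0.17, limma adjusted p = 0.0224) was 0.51 and not past the threshold after quantile normalization and -0.03 after centring, and the call was lost without any 1 of the S100a10 arrays or without Glt25d2 replicate 2. The other accessory subunits higher in the deposited scaling were Ndufa2, Ndufab1, Ndufb2, Ndufb5, Ndufb7, Ndufb8, Ndufb10 and Ndufs5. Their differences of 0.34 to 0.62 were 0.04 to 0.38 after quantile normalization, with none past the threshold, and all negative after centring, down to -0.37 for Ndufb5, which passed as lower. All but Ndufa2 and Ndufb8 lost the call in at least 1 fit that left out an array.

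The 8 assembly factors of complex I, which help build it and are not part of the finished enzyme, had a median of -0.08. In S100a10 1 was higher (12.5%, against 44.4% of all genes) and 1 lower (12.5%, against 4.5%). Ndufaf8, which in human cells partners Ndufaf5, had 2779, 3274 and 2856 in S100a10 arrays against 1432, 1393 and 1449 in Glt25d2 arrays. All S100a10 arrays lay above all Glt25d2 arrays, by a difference of 1.06 (SE 0.10, limma adjusted p = 6.2e-04) that was 0.68 after quantile normalization (limma adjusted p = 0.0107) and 0.35, not past the threshold, after centring. Ndufaf5 itself, which modifies an arginine of Ndufs7, had 1229, 1053 and 1133 in S100a10 arrays against 1237, 1349 and 1722 in Glt25d2 arrays. Its difference of -0.32 did not pass (SE 0.16, limma adjusted p = 0.138) and was -0.79 after quantile normalization (limma adjusted p = 0.0115). Ndufaf1, which acts early on the membrane arm, had 1116, 1064 and 1099 in S100a10 arrays against 1411, 1359 and 1548 in Glt25d2 arrays. This gene was lower in every S100a10 array, with a difference of -0.40 (SE 0.10, limma adjusted p = 0.0193) that was -0.86 and -1.10 after quantile normalization and centring and lost its call without Glt25d2 replicate 1.

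Ndufaf7, a methyltransferase of the core, had 1027, 795 and 889 in S100a10 arrays against 1106, 1163 and 1697 in Glt25d2 arrays, a difference of -0.53 (SE 0.20, limma adjusted p = 0.0785) that was -1.03 and past the threshold after quantile normalization. Ndufaf6 was likewise lower after quantile normalization (-0.79) and centring (-0.85), but did not pass as deposited, at -0.15. Ndufaf5, Ndufaf6 and Ndufaf7 lie outside the naming rule and were picked with their values in view. The remaining 3 factors, Ndufaf2, Ndufaf3 and Ndufaf4, had differences of 0.15, 0.20 and -0.01.

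Glt25d2 replicate 3 stood apart from the other arrays of its group, in the assembly factors of complexes I and II, in complex II subunits and in markers of other cells. It was above both other Glt25d2 arrays in all 12 measured assembly factors of complexes I and II, by 0.0156 to 0.82 over the mean of the other two on the log2 scale (median 0.27). Over all 87 members it was above both others in 26 and below both in 27. Over all genes tested it was above both in 50.2% and below both in 25.7%, with a median of 0.07. The accessory subunits of complex I went the other way in number, with 5 above and 12 below. It was also above both in 3 of the 4 complex II subunits, with a median of 0.26. Among measured assembly factors of complexes III, IV and V, it was above both in Bcs1l, Uqcc1, Sco1, Cox10, Cox11 and Cox15. The same held for Cox18, Cox20, Coa5, Coa7, Lrpprc, Atpaf1, Atpaf2 and Tmem70. It was below both in Uqcc2, Uqcc3, Ttc19 and Sco2, and the rest lay between or tied. Of the 8 complex I assembly factors outside the symbol rule, it was above both in all but Timmdc1. Among the 62 cell type markers on the array it was above both in 12 and below both in 24. Those below both included the astrocyte marker Gja1, with 349 in Glt25d2 replicate 3 against 3699 and 5382 in the other arrays. They also included the oligodendrocyte marker Mog, with 48.2 against 299 and 395. Of the interneuron markers they included Sst, with 76.6 against 437 and 595, and Slc32a1, with 35.8 against 307 and 509. Other markers of these cells were above both. They were Ermn of oligodendrocytes, with 1349 against 742 and 1247, and the interneuron markers Gad2, with 670 against 370 and 585, and Lhx6. By list, 0 of 7 astrocyte markers were above both and 5 below both. For oligodendrocytes it was 1 and 2 of 6, and for interneurons 2 and 5 of 9. Of the 9 pyramidal cell markers 4 were above both and 2 below both. The part of these markers in the values of the assembly factors was not tested. Without this array 24 members were higher (27.6%, against 55.1% of all genes) and 4 lower (4.6%, against 6.13%), and among the assembly factors Sdhaf3 then passed as well, at 0.67 (limma adjusted p = 0.0236).

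**Figure D3:**
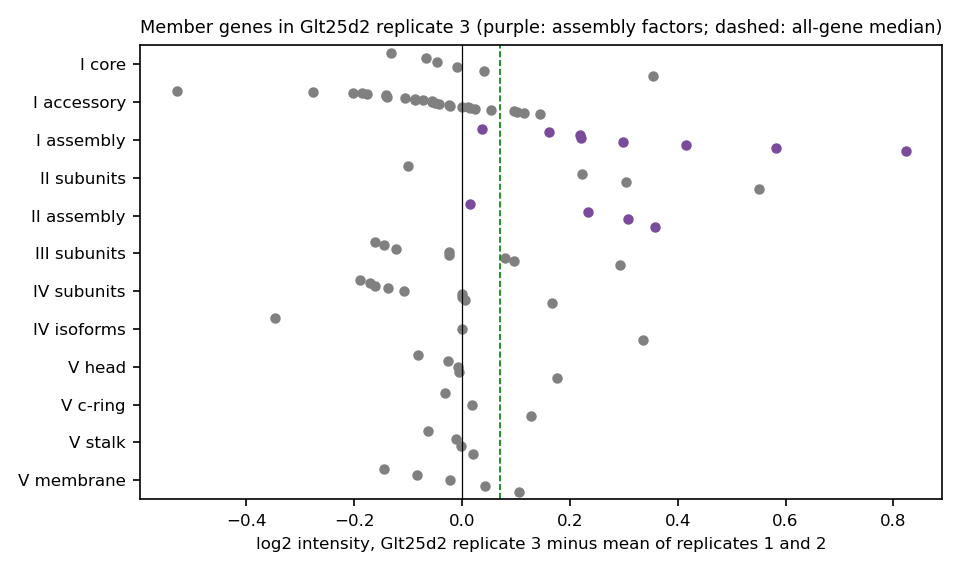
Log2 intensity of each measured gene in Glt25d2 replicate 3 minus the mean of Glt25d2 replicates 1 and 2 (deposited values), by complex (V is ATP synthase) and role, with assembly factors in purple. All 12 assembly factors of complexes I and II lie right of 0, with a median of 0.27, against 0.07 over all genes tested (dashed line). The 4 complex II subunits have a median of 0.26.

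Complex II, the succinate dehydrogenase that also works in the citric acid cycle, held genes of opposite direction. Sdha, the flavoprotein that oxidises succinate, had 7709, 8741 and 7850 in S100a10 arrays against 11019, 10551 and 13320 in Glt25d2 arrays. Sdhc, 1 of 2 membrane anchors of the complex, had 4235, 4513 and 3842 in S100a10 arrays against 2433, 1696 and 2975 in Glt25d2 arrays. The groups did not overlap for either gene, and Glt25d2 was high for Sdha and low for Sdhc. Sdha differed by -0.52 (SE 0.13, limma adjusted p = 0.0202), by -0.72 and -1.22 in the quantile normalized and centred values and by -0.41 without Glt25d2 replicate 3, and its call in the deposited scaling was lost without S100a10 replicate 1 or replicate 3. A dimmer kept probe set of Sdha, at -0.28, did not pass as deposited. Sdhc differed by 0.86 (SE 0.22, limma adjusted p = 0.0225), but the quantile normalized difference of 0.55 and the centred one of 0.16 did not pass. Its call was also lost without any 1 of the S100a10 arrays or without Glt25d2 replicate 1, and the difference was 1.04 without Glt25d2 replicate 3. Centring adds the same amount to every gene of an array, so the gap between Sdhc and Sdha stayed the same size there. The other anchor, Sdhd, and the iron-sulphur subunit Sdhb did not pass, at 0.21 (SE 0.14, limma adjusted p = 0.246) and -0.06 (SE 0.09, limma adjusted p = 0.611). Sdhd was at -0.11 after quantile normalization and -0.49 after centring.

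Of the 4 assembly factors of complex II, 2 were higher in S100a10 in the deposited scaling (50.0%, against 44.4% of all genes) and 0 after either rescaling. Sdhaf1, which helps insert iron-sulphur clusters into Sdhb, had 695, 533 and 713 in S100a10 arrays against 328, 328 and 332 in Glt25d2 arrays. The Glt25d2 arrays were nearly equal and all lay below the S100a10 arrays, with a difference of 0.96 (SE 0.14, limma adjusted p = 0.00268) that was 0.32 and 0.26, not past the threshold, after quantile normalization and centring. Sdhaf4, which protects Sdha once it has its flavin, had 2166, 2138 and 2321 in S100a10 arrays against 1718, 1559 and 1926 in Glt25d2 arrays. Its difference of 0.35 (SE 0.12, limma adjusted p = 0.0491) turned to -0.03 after quantile normalization and -0.35 after centring, and leaving out any array but Glt25d2 replicate 3 ended the call. Sdhaf2, which attaches the flavin to Sdha, and Sdhaf3, a partner of Sdhaf1, did not pass, at 0.21 (SE 0.20, limma adjusted p = 0.405) and 0.57 (SE 0.20, limma adjusted p = 0.0577). After quantile normalization Sdhaf2 was at -0.25 and Sdhaf3 at 0.08, and after centring they were at -0.49 and -0.14.

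**Figure D4:**
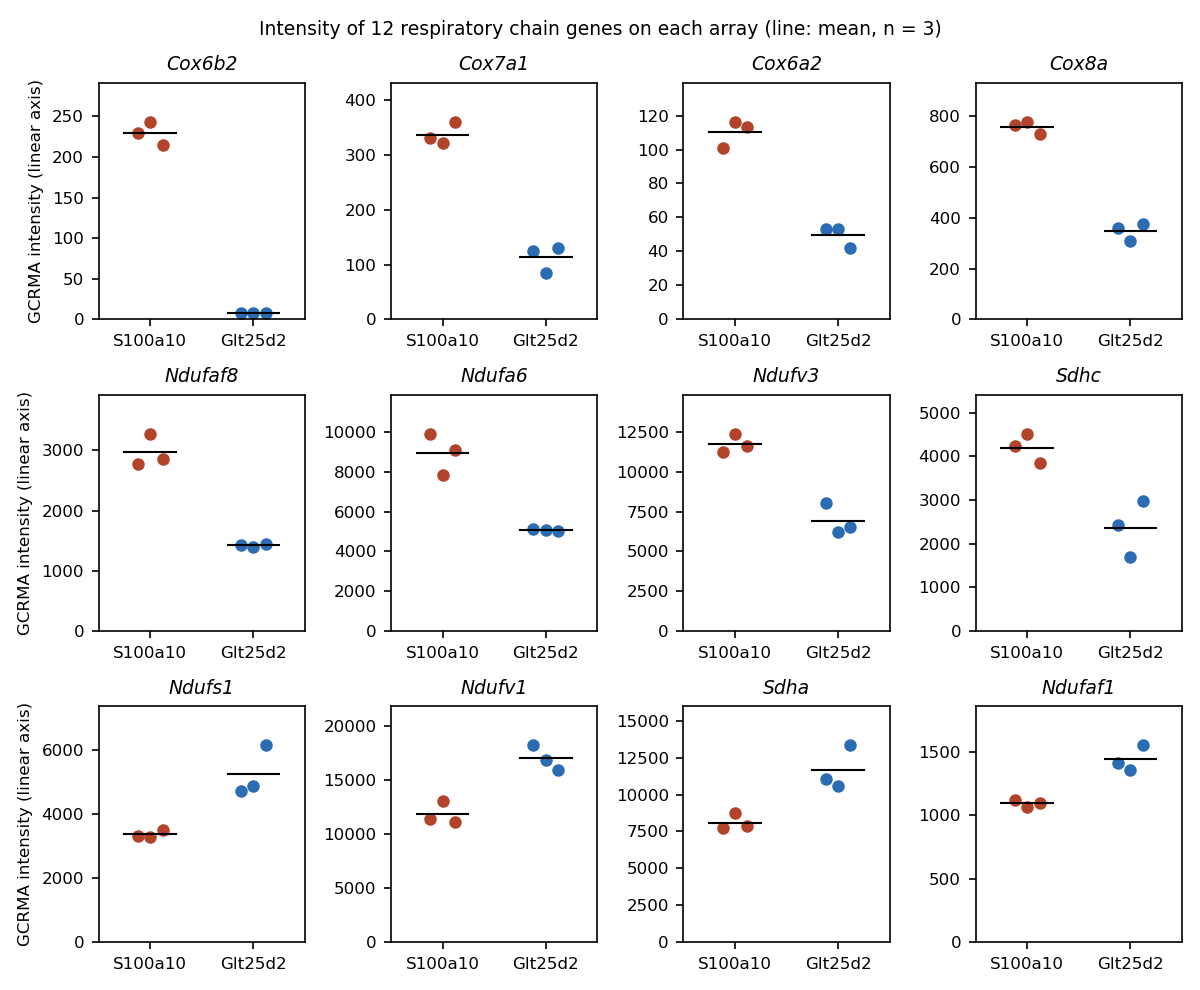
GCRMA intensity on each of the 6 arrays (linear axes starting at 0, lines at the mean of 3 arrays, S100a10 left and Glt25d2 right) for 12 genes. The S100a10 points lie above the Glt25d2 points in the upper 8 panels and below them in Ndufs1, Ndufv1, Sdha and Ndufaf1; after quantile normalization or centring none of the 12 changes sign, but Cox6a2 and Sdhc no longer pass after quantile normalization, and Cox8a, Ndufaf8, Ndufa6, Ndufv3 and Sdhc no longer pass after centring.

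Among the 8 subunits of complex III only Uqcrh, the hinge protein that binds cytochrome c1, passed in the deposited scaling on the probe set read. That is 12.5% higher, against 44.4% of all genes. Uqcrh had 9631, 9045 and 9384 in S100a10 arrays against 7042, 7174 and 6431 in Glt25d2 arrays, without overlap. The difference was 0.44 (SE 0.10, limma adjusted p = 0.012), 0.23 and not past the threshold after quantile normalization and -0.26 after centring. A dimmer kept probe set of Uqcrh, at 0.16, did not pass as deposited. The core proteins Uqcrc1 and Uqcrc2 and the Rieske iron-sulphur protein Uqcrfs1, all chosen after their values were seen, had negative differences. Uqcrc1 had 8054, 7258 and 8309 in S100a10 arrays against 10158, 8760 and 9278 in Glt25d2 arrays. Uqcrc2 had 21392, 24730 and 22449 in S100a10 arrays against 26744, 27599 and 29038 in Glt25d2 arrays. Uqcrfs1 had 8828, 8218 and 8259 in S100a10 arrays against 10146, 9992 and 12335 in Glt25d2 arrays. In all 3 genes every S100a10 array was lower than every Glt25d2 array. Their differences of -0.26 (SE 0.11, limma adjusted p = 0.107), -0.28 (SE 0.10, limma adjusted p = 0.0656) and -0.35 (SE 0.12, limma adjusted p = 0.0549) did not pass as deposited. They were -0.46, -0.48 and -0.56 and did pass after quantile normalization, and passed after centring. The other 4 subunits, Uqcrb, Uqcrq, Uqcr10 and Uqcr11, had differences of 0.00 to 0.22 and did not pass.

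On the probe set read for each gene, the widest differences were those of the complex IV isoforms known from other tissues. Of 8 such genes 3 were measured. Cox8a, at 1.13, was close to the isoform Cox6a2, at 1.16, and dimmer probe sets of Ndufb8 and Ndufa7 gave up to 2.34 and 2.13. The 3 isoforms lay below a mean log2 intensity of 10, where 51.9% of other genes were higher and 3.9% lower in S100a10. Cox6b2 and Cox6a2 passed the filter only through the S100a10 arrays, since their Glt25d2 means lay under 50, so that neither is read where both group means must reach 50. Cox6b2, the isoform of Cox6b known from testis, had 229, 242 and 215 in S100a10 arrays and the identical value of 7.40 in all 3 Glt25d2 arrays. Since all Glt25d2 arrays were under 50, the level was at least 4.58-fold higher in S100a10, measured against 50 in the deposited scaling. The fitted difference of 4.95 (SE 0.09, limma adjusted p = 6.12e-06) rests on that lowest value, and was 3.38 after quantile normalization and 4.25 after centring. Cox7a1, the isoform of heart and skeletal muscle, had 332, 321 and 360 in S100a10 arrays against 126, 84.9 and 130 in Glt25d2 arrays. The S100a10 arrays were all higher, by 1.59 (SE 0.19, limma adjusted p = 0.00123), which was 0.79 in the quantile normalized values (limma adjusted p = 0.0386) and 0.89 in the centred ones. Cox6a2, another heart and skeletal muscle isoform, had 101, 116 and 113 in S100a10 arrays against 53.4, 53.4 and 42.0 in Glt25d2 arrays. It also did not overlap, and its difference of 1.16 (SE 0.14, limma adjusted p = 0.00124) was 0.45 after centring (limma adjusted p = 0.0433) but 0.21 and not past the threshold after quantile normalization.

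All 3 calls held when any 1 array was left out of the deposited values. These isoforms were higher in S100a10, as were 8 of 10 measured mural cell and fibroblast markers (1 lower) and 44.4% of all genes tested. The part of mural cells and fibroblasts in the result was not tested. In the brain Cox6a2 is known from parvalbumin interneurons. Of the 9 interneuron markers 4 were higher in S100a10, Lhx6 by 2.57, Sst by 2.88, Npy by 3.46 and Dlx1 by 1.38, and Pvalb was lower, at -2.43, and their part was not tested either. The other 5 isoform genes, Cox4i2, Cox7b2, Cox8b, Cox8c and Ndufa4l2, lay under the filter, as did the subunit Cox7c and, in complex I, Ndufb4. Below that limit Ndufa4l2 had 46.3, 36.3 and 32.8 in S100a10 arrays against 6.74, 6.43 and 12 in Glt25d2 arrays, and Cox8b had 39.0, 32.2 and 42.7 in S100a10 arrays against 13.7, 16 and 16.1 in Glt25d2 arrays. Both were dimmer in every Glt25d2 array.

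Of the 9 measured complex IV subunits made in most tissues, 2 were higher in S100a10 (22.2%, against 44.4% of all genes) and 0 lower (median 0.22). Cox8a, the form of the Cox8 subunit made in most tissues, had 765, 776 and 729 in S100a10 arrays against 360, 308 and 374 in Glt25d2 arrays. The S100a10 arrays lay above all others, by 1.13 (SE 0.11, limma adjusted p = 6.36e-04), which was 0.51 in the quantile normalized values (limma adjusted p = 0.0336) and 0.42, not past the threshold, in the centred ones. Ndufa4, named as a complex I subunit and now counted to complex IV, had 8619, 9624 and 8386 in S100a10 arrays against 6400, 6121 and 6286 in Glt25d2 arrays, a difference of 0.50 (SE 0.10, limma adjusted p = 0.00882) that was 0.27 and not past the threshold after quantile normalization and -0.20 after centring. The 7 others, Cox4i1, Cox5a, Cox5b, Cox6a1, Cox6b1, Cox6c and Cox7a2, had differences of 0.02 to 0.31, and none passed. Cox7a2l, which joins complex III to complex IV in supercomplexes, had 9158, 8856 and 9270 in S100a10 arrays and 7077 in every Glt25d2 array. Its difference of 0.36 (SE 0.09, limma adjusted p = 0.0167) was 0.15 and not past the threshold after quantile normalization and -0.34 after centring. The call was lost without Glt25d2 replicate 1 or replicate 2. After centring 6 of the 9 common subunits were lower, against 25.1% of all genes. Ndufa4 and Cox7a2l were picked with their values in view.

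The catalytic head of ATP synthase, where ATP is made, showed no gene past the threshold in the deposited scaling or after quantile normalization (0 of 5 by limma at an adjusted p below 0.05). The alpha and beta subunits Atp5a1 and Atp5b differed by -0.02 (SE 0.09, limma adjusted p = 0.853) and -0.12 (SE 0.14, limma adjusted p = 0.501), with overlapping arrays. Atp5c1, the rotating central shaft, had 22114, 21415 and 21607 in S100a10 arrays against 25462, 23335 and 24274 in Glt25d2 arrays, and did not pass at -0.17 (SE 0.09, limma adjusted p = 0.181). Atp5d, at the foot of that shaft, had 14351, 13112 and 15443 in S100a10 arrays against 12328, 9710 and 10892 in Glt25d2 arrays, and did not pass at 0.39 (SE 0.13, limma adjusted p = 0.0549), nor at 0.21 after quantile normalization or -0.32 after centring. The arrays of the groups were apart in opposite directions in these 2 genes. Atp5e, which sits beside Atp5d, differed by 0.16 (SE 0.14, limma adjusted p = 0.358) as deposited, -0.07 after quantile normalization and -0.54 after centring. After centring, 4 of the 5 head genes were lower in S100a10, against 25.1% of all genes.

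The c subunit that forms the proton-driven ring is encoded by 3 genes whose mature protein is the same. Atp5g1 had 5146, 4590 and 5544 in S100a10 arrays against 6215, 4186 and 5168 in Glt25d2 arrays, with overlap and a difference of -0.01 (SE 0.17, limma adjusted p = 0.956). Atp5g2 had 2587, 1940 and 2697 in S100a10 arrays against 1759, 1470 and 1758 in Glt25d2 arrays, a difference of 0.52 (SE 0.17, limma adjusted p = 0.0445). Atp5g3 had 26780, 26884 and 26175 in S100a10 arrays against 22617, 21754 and 21701 in Glt25d2 arrays, a difference of 0.27 (SE 0.09, limma adjusted p = 0.0436). So Atp5g2 and Atp5g3 were higher in every S100a10 array, while both were 0.14 and 0.10 and not past the threshold after quantile normalization and -0.18 and -0.43 after centring, where Atp5g3 passed as lower. Atp5g3 lost its call without any 1 of the 6 arrays, and Atp5g2 without S100a10 replicates 1 or 3 or Glt25d2 replicates 1 or 2.

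Of the 4 stalk genes, which hold the head in place, Atp5j passed, with 16373, 16789 and 15737 in S100a10 arrays against 13315, 12330 and 12722 in Glt25d2 arrays. Of the 5 accessory subunits in the membrane, Atp5mpl passed, with 2025, 1923 and 1921 in S100a10 arrays against 1542, 1453 and 1542 in Glt25d2 arrays. Neither gene had overlapping groups. Atp5j differed by 0.35 (SE 0.09, limma adjusted p = 0.0231), which became 0.18 quantile normalized and -0.35 centred. Atp5mpl differed by 0.37 (SE 0.09, limma adjusted p = 0.0179), which became -0.04 quantile normalized and -0.33 centred, with none of these rescaled values past the threshold. Both calls were lost without Glt25d2 replicate 1 or replicate 2. The other 7 genes of these groups had differences of -0.03 to 0.29 and did not pass. After centring 5 of the 9 stalk and membrane genes were lower in S100a10, against 25.1% of all genes. Of all 17 ATP synthase genes, 4 were higher as deposited (23.5%, against 44.4% of all genes) and 0 lower. After quantile normalization 0 of the 17 passed in either direction.

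**Figure D5:**
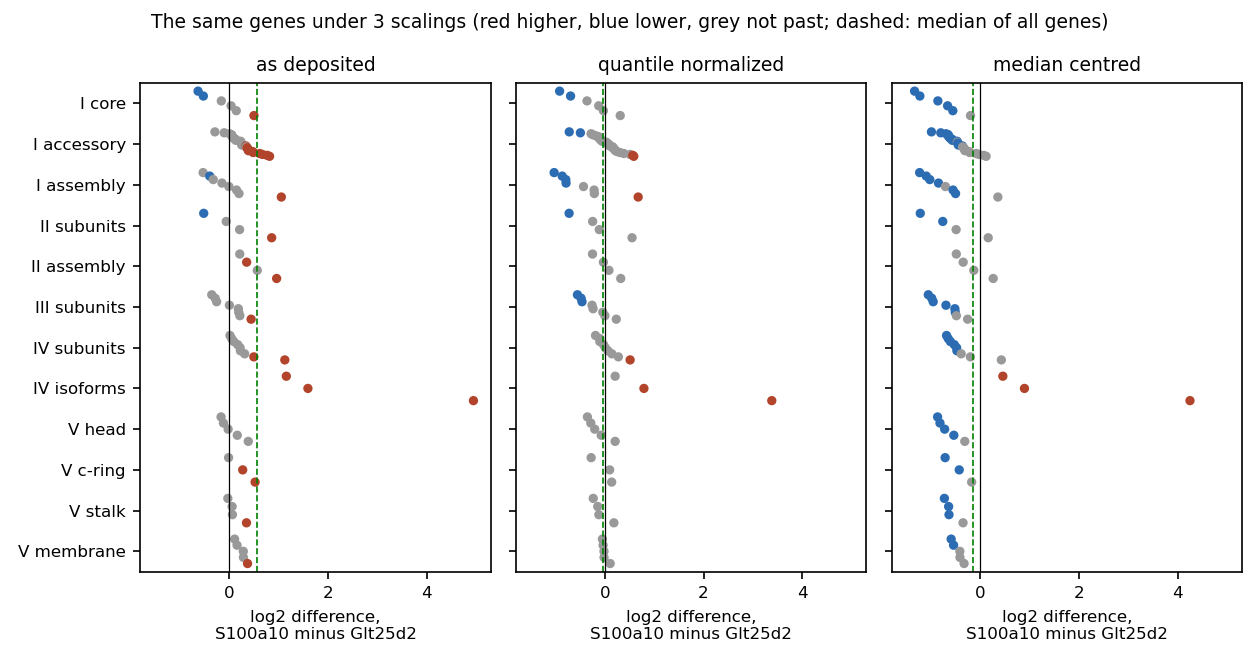
Log2 difference (S100a10 minus Glt25d2) of the measured genes by complex and role (V is ATP synthase; Cox7a2l is not drawn) in the deposited scaling, after quantile normalization and after median centring, red for higher, blue for lower and grey for not past the threshold. The member counts go over from 27 higher and 4 lower to 6 and 12 and to 3 and 51, while the complex IV isoforms stay on the right and Ndufs1, Ndufv1, Sdha and Ndufaf1 stay blue in every panel; the dashed line, the median of all genes, stands at 0.56, -0.04 and -0.14.

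Several genes have more than 1 probe set, and these did not always give the same call. Of the 185 probe sets 154 were kept, of which 46 were higher (29.9%, against 44.2% of all probe sets tested) and 7 lower (4.55%, against 4.39%) in S100a10. Of the 46 genes with several kept probe sets, 0 were called in both directions, 7 were called on all, 16 on some and 23 on none. For 10 genes the brightest probe set was not called while another was. Ndufa7, a complex I accessory subunit, had 5 kept probe sets with differences of 0.23 to 2.13, 3 of them higher. Ndufa5, another accessory subunit, differed by 0.13 on the probe set read and by -0.69 (limma adjusted p = 0.00188) on a dimmer one. Ndufb8 gave 0.62 and 2.34, both higher, and Ndufaf4 gave -0.01 and 0.81. Ndufv1 had 3 kept probe sets at -0.52 to -0.21, of which 2 were lower, while the 5 of Ndufs8 lay between -0.25 and 0.16 with none called. These genes were chosen after their values were seen.

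A further 10 probe sets name several genes, mostly a subunit and its near-identical copy, and were left out of all counts. The one for Ndufs5 and Ndufs5-ps averaged 16302 ± 1127 in S100a10 arrays and 10326 ± 28.3 in Glt25d2 arrays (SD, n = 3 each), a difference of 0.66 (limma adjusted p = 0.00283). That for Ndufs6 and Ndufs6b differed by 0.50 (limma adjusted p = 0.00608), and those for the 3 Ndufb4 genes by 0.33 (limma adjusted p = 0.0257) and 0.42 (limma adjusted p = 0.016). Which copy gave the signal cannot be told apart. The probe set for Ndufa11 and Ndufa11b, at -0.02, did not pass.

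Genes that work next to these complexes were read from lists set by function. For every list below, the shares over all genes tested were 44.4% higher and 4.5% lower as deposited. After quantile normalization they were 16.8% and 18.4%. Of 18 electron carriers and their dehydrogenases, 6 were higher and 2 lower in S100a10 (median 0.05), and 2 higher and 6 lower after quantile normalization. Sqor, which passes electrons from sulphide to ubiquinone, had 586, 434 and 379 in S100a10 arrays against 80.8, 95.5 and 106 in Glt25d2 arrays, a difference of 2.29 (SE 0.20, limma adjusted p = 3.91e-04) that was 1.51 after quantile normalization and 1.59 after centring. Gpd2, the mitochondrial glycerol phosphate dehydrogenase, had 2629, 2058 and 2341 in S100a10 arrays against 3402, 3354 and 2956 in Glt25d2 arrays and was lower, at -0.47 (SE 0.13, limma adjusted p = 0.029), and also at -0.81 and -1.17 after quantile normalization and centring. Cytochrome c (Cycs) and cytochrome c1 (Cyc1) did not pass, at 0.26 and -0.14. Of 8 complex I assembly factors outside the symbol rule, 3 were higher and 1 lower, and 0 higher and 3 lower after quantile normalization. The lower one as deposited was Acad9, a partner of Ndufaf1 in assembly, with 321, 299 and 327 in S100a10 arrays against 538, 547 and 710 in Glt25d2 arrays. It differed by -0.91 (SE 0.14, limma adjusted p = 0.00336), -1.58 after quantile normalization and -1.62 after centring. Ndufaf1 and Acad9, which was picked with its values in view, were thus both lower in S100a10 in every scaling. Other factors of this list went the other way as deposited. Ecsit, Tmem126a and Timmdc1 were higher, at 0.30, 0.43 and 0.53, and Tmem126b and Tmem186 did not pass, at 0.27 and 0.51. None of these was called after either rescaling, while Nubpl and Foxred1 were lower after both.

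Of 24 assembly factors of complexes III, IV and V, 8 were higher and 1 lower in S100a10 (median 0.36), and 3 higher and 4 lower after quantile normalization. The lower one as deposited was Atpaf1, a chaperone of the beta subunit of ATP synthase, with 2390, 1852 and 2246 in S100a10 arrays against 2990, 3077 and 3928 in Glt25d2 arrays, and it differed by -0.62 (SE 0.16, limma adjusted p = 0.0237), by -0.97 quantile normalized and by -1.32 centred, both past the threshold. Cox16, a complex IV assembly factor, was higher in all 3 scalings, at 1.44 as deposited (SE 0.09, limma adjusted p = 1.25e-04), 0.62 and 0.74. Of 7 measured carriers of nucleotides, phosphate and the outer membrane, 1 was higher and 2 lower (median -0.09), and 0 higher and 2 lower after quantile normalization. The lower ones were Vdac3, an outer membrane channel, at -0.41 (SE 0.10, limma adjusted p = 0.0194), and the mitochondrial creatine kinase Ckmt1, with 3666, 4615 and 4106 in S100a10 arrays against 7075, 6319 and 6319 in Glt25d2 arrays, at -0.67 (SE 0.12, limma adjusted p = 0.00665). Both were also lower after quantile normalization and centring.

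Of 17 regulators of mitochondrial gene expression, 11 were higher (against 44.4% of all genes) and 1 lower (against 4.5%) in S100a10. Their median was 0.61, against 0.56 over all genes. After quantile normalization 1 was higher and 4 lower, against 16.8% and 18.4% of all genes. The lower one in the deposited scaling was Ppargc1a, the coactivator known as a driver of mitochondrial biogenesis, with 2624, 2515 and 2097 in S100a10 arrays against 3533, 4014 and 4839 in Glt25d2 arrays. Every S100a10 array was below every Glt25d2 array, with a difference of -0.77 (SE 0.16, limma adjusted p = 0.0107), -1.09 after quantile normalization and -1.47 after centring. Nrf1, whose motif letters were counted in the promoters, had 123, 119 and 133 in S100a10 arrays against 64.3, 55.6 and 58.1 in Glt25d2 arrays, a difference of 1.08 (SE 0.11, limma adjusted p = 6.04e-04) that was 0.15 and 0.37, not past the threshold, after quantile normalization and centring. Gabpa, the ETS factor, differed by 0.78 (SE 0.18, limma adjusted p = 0.0139) as deposited, and by 0.23 and 0.07, not past the threshold, in the rescaled fits.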

How the data were processed

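Biotin-labelled RNA from 6 samples was hybridised to 6 Affymetrix arrays. The deposited table holds linear intensities made with GCRMA, per the submitters' processing notes, which normally corrects background by probe base composition, normalizes quantiles and summarises probe sets; its version and whether the groups were normalized together are not given in the sources used here. At least 2 Glt25d2 arrays held the same value in 15 of the 87 measured genes (22.1% of all genes tested) and S100a10 arrays in 0. The deposited table was used as it stands, without pseudocount. After 64 control probe sets were left out, 21291 in which the mean of either group reached 50 (the limit the series text proposes) were fitted on log2 with limma 3.58.1 in R 4.3.3 (lmFit, eBayes, 2-sided, Benjamini-Hochberg adjustment over all of them, threshold 0.05), without a block. A list of probe sets that the series text recommends was not used here.

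Genes were named from probe sets with 1 symbol (34945), and all 185 matched RefSeq by Entrez identifier with 0 symbols changed. The replicates are independent by the series text, and the precision of every value is limited by the number of arrays. The labels do not state that equal replicate numbers pair the samples, and they were not taken as pairs. Deviations of same-numbered samples from their group means correlated at -0.45, 0.22 and -0.24 over genes. With 3 samples per group these values depend on each other, so they cannot decide whether such samples were processed together. The members, gene lists and tests were chosen with earlier results of these data known. Named by rule were the 4 largest called differences of each complex, all called lower, the measured complex IV isoforms, ATP synthase head and c-ring genes and complex II genes, and genes whose probe sets were called in both directions (0); others were picked with their values in view. The fit was tested on simulated data. Alternatives were 18: other filters, a floor of 50 on all values, a pseudocount of 16, median centring and quantile normalization of the tested probe sets, quantile normalization without Glt25d2 replicate 3, a replicate block, a trended prior, array weights, 1 probe set per gene before the fit, probe sets averaged per gene and each array left out. Tables and plots were made in Python 3.11.15 (matplotlib 3.10.9, numpy 2.4.6, pandas 2.3.3).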

Additional observations from a re-analysis of the deposited data

How the results depend on the processing

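The number of members called depended most on the scaling between arrays, while leaving out arrays or changing the filter moved it less. Of 27 genes higher in S100a10, the count was 42 with no filter (94 genes read; 46.3% of all genes), 6 after quantile normalization, 3 after median centring and 7 after quantile normalization without Glt25d2 replicate 3 (21.7% of all genes). It was 14 to 24 with 1 array left out, of which 17 without S100a10 replicate 1 (35.9% of all genes), 16 without Glt25d2 replicate 1 (38.0%) and 14 without Glt25d2 replicate 2 (35.3%). Of 4 genes lower, the count was 10 with no filter (9.58% of all genes), 12 after quantile normalization, 51 after centring, 13 after quantile normalization without Glt25d2 replicate 3 (22.2% of all genes), 7 with a trended prior (4.71%), with array weights (7.61%) or with probe sets averaged per gene (4.13%), and 3 to 5 with 1 array left out (3.05% to 6.13%). With the replicate number as a block 13 genes were higher (35.3% of all genes) and 1 lower (2.67%); the numbers are not a pairing by the labels, and not every sample correlated best with its own number. The median difference of the members relative to all genes, -0.36, was -0.20 with no filter, -0.28 with both means at 50 or more, -0.0053 after quantile normalization, -0.010 after quantile normalization without Glt25d2 replicate 3, -0.27 with array weights and -0.40 to -0.33 with 1 array left out. Among the 30 named genes, signs of values past the threshold in either fit turned after median centring for Atp5e (-0.54), Atp5g2 (-0.18), Atp5g3 (-0.43), Atp5j (-0.35), Atp5mpl (-0.33), Ndufa13 (-0.031), Sdhaf4 (-0.35) and Uqcrh (-0.26). After quantile normalization they turned for Atp5mpl (-0.036) and Sdhaf4 (-0.029), and without Glt25d2 replicate 3 as well for Atp5mpl (-0.027). Among the same genes, signs of values that passed in neither fit turned after centring for Atp5d (-0.32), Sdhaf2 (-0.49), Sdhaf3 (-0.14) and Sdhd (-0.49). After quantile normalization they turned for Atp5e (-0.073), Sdhaf2 (-0.25) and Sdhd (-0.11). Members outside the 30 turned as well, such as Ndufa2 and Ndufb8 after centring and Ndufb1 after quantile normalization. The fits with an array left out hold fewer samples. Without Glt25d2 replicate 3 the calls over all genes rose from 44.4% to 55.1% higher and from 4.5% to 6.13% lower. The cause of the moves was not tested. Of 538 values of the 30 named genes under these alternatives, 430 kept direction and side of the threshold, 16 that passed in neither fit turned sign, 66 no longer passed, 15 newly passed and 11 that passed in either fit reversed.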
